A study of Rattus norvegicus with 20 samples.

Results

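The fibrillar collagen genes Col1a1 (ENSRNOG00000003897), Col1a2 (ENSRNOG00000011292) and Col3a1 (ENSRNOG00000003357) were followed in right ventricle (RV) and left ventricle (LV) tissue from male rats that had received monocrotaline (MCT) or saline. These 3 rows were taken by Ensembl identifier from a table of 30452 genes, and all 3 were among the 10929 genes that passed the filter on low counts. MCT is a plant alkaloid that injures the vessels of the lung and is used to model pulmonary hypertension, in which the RV pumps against a raised pressure. Per the labels, the injection of 60 mg/kg MCT, or of saline, was given at a body weight of 250 g, and animals were killed once a discomfort score of at least 7 was reached. The 4 groups, of 5 libraries each, were the RV after MCT, the RV after saline and, in the same way, the LV after either injection. Strain, age, the days between injection and death, and whether saline rats were killed at matched times are given in no source used here. The study addressed how each ventricle's transcriptome looks in this model.

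Fibrillar collagens form the load-bearing fibres between heart muscle cells. Col1a1 encodes the chain that is present as a pair in the common type I molecule, and Col1a2 encodes its single partner chain, so both are made together. Col3a1 encodes the chain of type III collagen, a thinner fibre that is laid down together with type I and is prominent in compliant and repairing tissue. In the heart all are made mainly by fibroblasts, and their mRNAs are classic markers of fibrosis. In whole-tissue RNA, more cells of a type and more RNA per cell cannot be told apart.

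The promoter of Col1a2 is shown, as the member of the set found in the RefSeq promoter table (assembly GRCr8). Those of Col1a1 and Col3a1 were not in it, so nothing shared between the promoters could be looked for. The stretch lies on the plus strand at chr4:33518307-33518391. Capitals mark a CCAAT box, read on the opposite strand as ATTGG, and a TATAA element.
Col1a2: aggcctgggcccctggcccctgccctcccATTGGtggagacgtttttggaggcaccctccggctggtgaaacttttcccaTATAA
The annotated start of this gene model falls on an ATG, so the bases nearest to it may be transcribed, and they are not printed. In the 250 bases before the annotated start, searched on both strands, CCAAT occurred 1 time, TATAA 1 time, CAGAC 2 times and GGGCGG 0 times. Over the 33469 promoter windows of that length in the table, 34.0% held CCAAT, 24.0% TATAA, 42.9% CAGAC and 30.5% GGGCGG. These motifs are therefore common, and a match is a description of letters rather than a site in use.

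Levels are given as CPM, counts scaled to a common library total, with each total first adjusted by TMM, a correction for unequal composition of libraries. The libraries held 3272420 to 9227104 counts, and the collagen counts ran from 406 to 9270. Counting error alone was therefore 1.04% to 4.96% of a value (the Poisson coefficient of variation), far below most of the spread described next. The libraries read the 3' ends of transcripts, so counts were not divided by gene length, and levels are compared between groups rather than between genes. A pair of MCT libraries stood apart from the rest of their groups over all genes: on the first principal component, which held 32.0% of the variance, RV MCT replicate 4 scored -30.3 and LV MCT replicate 3 scored -21.0. The other 8 MCT libraries scored from 7.12 to 54.1 and the saline libraries from -31.0 to -9.61. The 10 genes with most counts took 48.6% of RV MCT replicate 4 and 50.2% of LV MCT replicate 3, against 25.7% to 42.2% of the other MCT libraries and 34.6% to 50.2% of the saline libraries. The part of these library-wide measures in the collagen values was not tested. The description codes read as dates in May or June for replicates 1, 2 and 3 of every group and in November for replicates 4 and 5. No table here pairs Ensembl identifiers with symbols, so markers of ventricle, fibroblast, blood or atrial tissue were not checked.

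The ventricle labels of the MCT libraries were instead read against genes that separated the ventricles after saline. All RV saline libraries lay above all LV saline libraries in 172 genes and below them in 193, the collagens left out. In the MCT pairs of replicates 1 to 4, 58.1% to 82.6% of the genes higher in the RV after saline were also higher in the RV library, and 60.1% to 85.5% of the genes higher in the LV were also higher in the LV library. In the pair of replicate 5 these shares were 39.0% and 30.1%, so most of the genes ran opposite to the labels. Genes that moved with the collagens were not left out, so this check may not be independent of the collagen values. Some genes separate the ventricles after saline by chance, and their number was not estimated. Over all tested genes the RV library was higher in 46.2% to 50.7% in each pair. Whether RV and LV are exchanged in the libraries labelled RV MCT 5 and LV MCT 5, or in another pair, was not settled, and an exchange would turn the direction of that pair. Results are therefore given also without both libraries of replicate 5, a choice made after these values were seen.

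Col1a1 in the RV was at 670.3, 972.0, 436.7, 187.0 and 287.1 CPM in MCT replicates 1 to 5. In RV saline it was at 298.3, 206.6, 189.8, 209.0 and 207.1 CPM. Of the MCT libraries 3 lay above all saline libraries, replicate 5 lay within their range and replicate 4 lay below all of them, so the groups overlapped. In the LV, Col1a1 was at 192.2, 271.4, 159.9, 412.1 and 1025 CPM in MCT replicates 1 to 5. LV saline libraries stood at 131.9, 142.1, 135.5, 120.3 and 119.3 CPM, a range of 1.19-fold. All 5 LV MCT libraries thus lay above all 5 LV saline libraries, and replicate 5 was far above the others.

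Col1a2, the partner chain, was at 500.6, 757.5, 369.3, 225.5 and 257.3 CPM in RV MCT replicates 1 to 5. RV saline libraries had 240.8, 194.9, 171.5, 229.6 and 183.2 CPM. Replicate 4 was the MCT library that lay within the saline range, and the other 4 lay above it. LV MCT libraries had 180.3, 227.2, 175.7, 305.5 and 649.3 CPM, and LV saline libraries 123.6, 190.1, 128.0, 162.2 and 117.4 CPM. Here 3 MCT libraries lay above all saline libraries, while replicates 1 and 3 lay below the highest saline library.

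Col3a1, the type III chain, was at 1241, 1240, 867.5, 294.1 and 431.3 CPM in RV MCT replicates 1 to 5, against 478.2, 391.8, 314.5, 414.2 and 381.8 CPM in RV saline. As with Col1a1, 3 MCT libraries lay above the saline range, replicate 5 within it and replicate 4 below it. LV MCT libraries had 277.5, 274.7, 275.2, 556.1 and 1482 CPM, and LV saline libraries 258.9, 274.1, 223.5, 296.7 and 288.4 CPM. In the LV the high values were thus those of replicates 4 and 5, and replicates 1, 2 and 3 lay within the saline range. LV MCT replicates 1 and 2 scored 33.2 and 29.5 on the first principal component, above every saline library, while their Col3a1 stayed at saline levels.

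**Figure D1:**
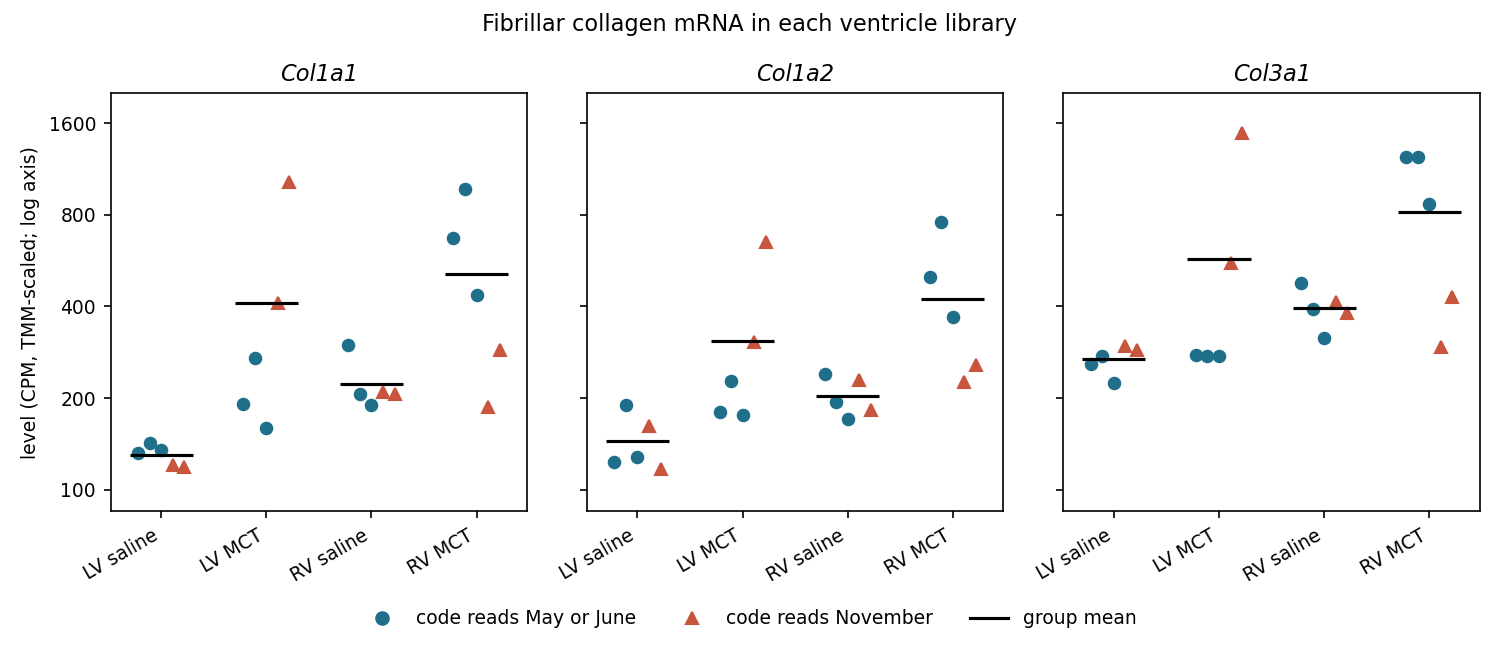
Level of each collagen gene in every library (log axis, CPM after TMM scaling), with the group mean as a line, circles for libraries whose code reads May or June and triangles for November. Saline libraries lie close together, MCT libraries spread over 3.36-fold to 6.41-fold, and the high MCT libraries are circles in the RV and triangles in the LV.

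The order of the group means was the same for each gene: LV saline lowest, then RV saline, LV MCT and RV MCT. Col1a1 averaged 129.8 ± 9.87 (SD, n = 5), 222.2 ± 43.3, 412.1 ± 356.0 and 510.6 ± 315.6 CPM in that order. The means of Col1a2 were 144.3 ± 31.0, 204.0 ± 29.9, 307.6 ± 198.0 and 422.0 ± 216.4 CPM, and those of Col3a1 268.3 ± 28.9, 396.1 ± 59.0, 573.0 ± 522.3 and 814.7 ± 442.5 CPM. By medians the order held for Col1a1 and Col1a2 but not for Col3a1. Its median was 277.5 CPM in LV MCT, below 391.8 CPM in RV saline, and its LV MCT mean included replicate 5 at 1482 CPM. In the test over all libraries neither the step from LV saline to RV saline nor that from LV MCT to RV MCT passed for any of the genes, as given below, and RV saline against LV MCT was not tested. Together the 3 genes took 0.0469% ± 0.00430 (SD, n = 5) of all counts in LV saline and 0.145% ± 0.121 in LV MCT, against 0.0818% ± 0.0205 and 0.195% ± 0.116 in the RV groups.

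The spread between libraries differed greatly between treatments. On the log2 CPM scale the SD of Col1a1 was 1.07 in LV MCT and 0.11 in LV saline, and 0.94 in RV MCT and 0.25 in RV saline. In LV MCT 2.18% of the tested genes had a larger SD than Col1a1, while in LV saline 96.8% had a larger one. Col3a1 had an SD of 1.07 in LV MCT, 0.16 in LV saline, 0.94 in RV MCT and 0.22 in RV saline. Col1a2 varied less after MCT, with an SD of 0.78 in the LV and 0.71 in the RV, against 0.30 and 0.21 after saline. Over all tested genes the median SD was 0.37 in LV MCT, 0.33 in LV saline, 0.40 in RV MCT and 0.30 in RV saline. The collagens were thus among the more variable genes after MCT, and below the median SD of all genes after saline. These SDs are descriptions, and their difference was not tested.

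In the LV, both type I chains were called higher after MCT in the fit over all libraries. Col1a1 was 3.17-fold higher than after saline, or 1.67 log2 units (SE 0.43, edgeR quasi-likelihood test with Benjamini-Hochberg adjustment over all tested genes, adjusted p = 0.023). Col1a2 was 2.13-fold higher, or 1.09 log2 units (SE 0.34), and passed too (edgeR adjusted p = 0.045). Col3a1 had the same fold, 2.13, and a log2 value of 1.09 (SE 0.42), but did not pass the threshold of 0.05 (edgeR adjusted p = 0.11). Across all genes 5.45% were called higher in the LV, 9.52% were called in either direction, and in 3.21% every LV MCT library lay above every LV saline library, as it did for Col1a1. A larger log2 fold change than that of Col1a1 was seen in 1.75% of tested genes, and 4.79% and 4.74% had a larger one than Col1a2 and Col3a1.

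These LV calls rested on few libraries. Without both MCT libraries of replicate 5 the log2 fold changes were 0.98 for Col1a1, 0.61 for Col1a2 and 0.35 for Col3a1, and none was called (edgeR adjusted p = 0.095, 0.19 and 0.57). The values without LV MCT replicate 5 alone were 0.98, 0.60 and 0.35 (edgeR adjusted p = 0.11, 0.22 and 0.60). The Col1a1 call was also lost without LV saline replicate 4 or 5 (adjusted p = 0.055 and 0.054), and kept in the other 17 fits that left out 1 library. The Col1a2 call was kept in 6 of 20 such fits. It was lost without LV MCT replicate 2, 4 or 5, LV saline replicate 1, 3, 4 or 5, RV MCT replicate 1 or 3, or any single RV saline library (adjusted p from 0.0502 to 0.22). Without LV MCT replicate 3, the LV library that lay among the saline libraries, the log2 fold changes were 1.87, 1.24 and 1.27 for Col1a1, Col1a2 and Col3a1 (edgeR adjusted p = 0.0063, 0.018 and 0.0504), in a fit that called 8.31% of genes higher. That library had the lowest LV MCT level of both type I chains. Higher values without it therefore follow from the choice and do not count as support. With no filter on low counts neither type I chain was called (edgeR adjusted p = 0.054 and 0.075), and Col1a2 was not called with the month as a term or with the LV groups alone (edgeR adjusted p = 0.054 and 0.061). Both type I chains stayed called with DESeq2 (DESeq2 adjusted p = 0.0032 and 0.021) and with limma voom (limma adjusted p = 0.00092 and 0.0019). Those methods called 1391 and 2911 genes in the LV in either direction, against 1040 in the main fit.

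In the RV none of the collagens passed the threshold, though each had about the same fold as in the LV or less. Col1a1 was at a 2.30-fold higher fitted level after MCT, or 1.20 log2 units (SE 0.43), at an edgeR adjusted p of 0.15. For Col1a2 the fold was 2.07, or 1.05 log2 units (SE 0.34), and for Col3a1 2.06, or 1.04 log2 units (SE 0.42), with edgeR adjusted p of 0.12 and 0.20. Across all genes 0.238% were called higher in the RV and 0.274% in either direction, and groups without overlap, seen for 0 of the 3 collagens, were seen with MCT higher in 0.961% of genes. The unadjusted p of the collagens was 0.0103, 0.0051 and 0.0227 in the same edgeR fit, where 9.96% of genes were higher with an unadjusted p under 0.05. A larger log2 fold change than these was seen in 2.47%, 3.44% and 3.50% of tested genes. Without RV MCT replicate 4, the RV library that lay among the saline libraries, Col1a1 and Col1a2 passed with log2 fold changes of 1.41 and 1.21 (edgeR adjusted p = 0.044 and 0.034). Col3a1 was then at 1.25 (edgeR adjusted p = 0.066), and 4.08% of all genes were called higher in that fit. Replicate 4 had the lowest level of each collagen among the RV MCT libraries. Leaving it out therefore raised the values by the choice itself, and these calls do not count as support. Without RV MCT replicate 2 the values were 0.84, 0.73 and 0.84 for Col1a1, Col1a2 and Col3a1 (edgeR adjusted p = 0.43, 0.36 and 0.46), and without replicate 1 Col3a1 was at 0.84 (edgeR adjusted p = 0.51). Without both MCT libraries of replicate 5 all 3 collagens were called in the RV, at 1.35, 1.19 and 1.20 (edgeR adjusted p = 0.041, 0.033 and 0.043), against 1.59% of all genes called higher. Without RV MCT replicate 5 alone the values were the same, but none was called (edgeR adjusted p = 0.11, 0.078 and 0.14). Without LV MCT replicate 5 alone they stayed at 1.20, 1.05 and 1.04, with smaller SEs of 0.33, 0.26 and 0.31 (edgeR adjusted p = 0.067, 0.055 and 0.087). Among the RV MCT libraries only replicate 4 had lower collagen levels than replicate 5. Higher RV values without replicate 5 therefore follow from the choice, and the calls without both libraries do not count as support.

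The values in each ventricle differed with the month in the codes. Among the May and June libraries, 3 per group, the RV log2 fold changes were 1.59 for Col1a1, 1.43 for Col1a2 and 1.51 for Col3a1 (edgeR adjusted p = 0.025, 0.026 and 0.0057), and 1.13% of all genes were called higher. In November, with 2 libraries per group, they were 0.19, 0.23 and -0.13 (edgeR adjusted p = 0.98, 0.97 and 0.98). The LV showed the opposite order. In May and June its log2 fold changes were 0.59, 0.39 and 0.11 (edgeR adjusted p = 0.43, 0.58 and 0.87), and in November 2.58, 1.77 and 1.80 (edgeR adjusted p = 0.026, 0.040 and 0.051), when 1.37% of all genes were called higher. RV MCT replicate 4, which lay among the saline libraries, and both libraries of replicate 5, whose ventricle labels are in doubt, are November libraries, and LV MCT replicate 3 is a June library, so the month and these libraries cannot be told apart. The difference between months was not tested.

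**Figure D2:**
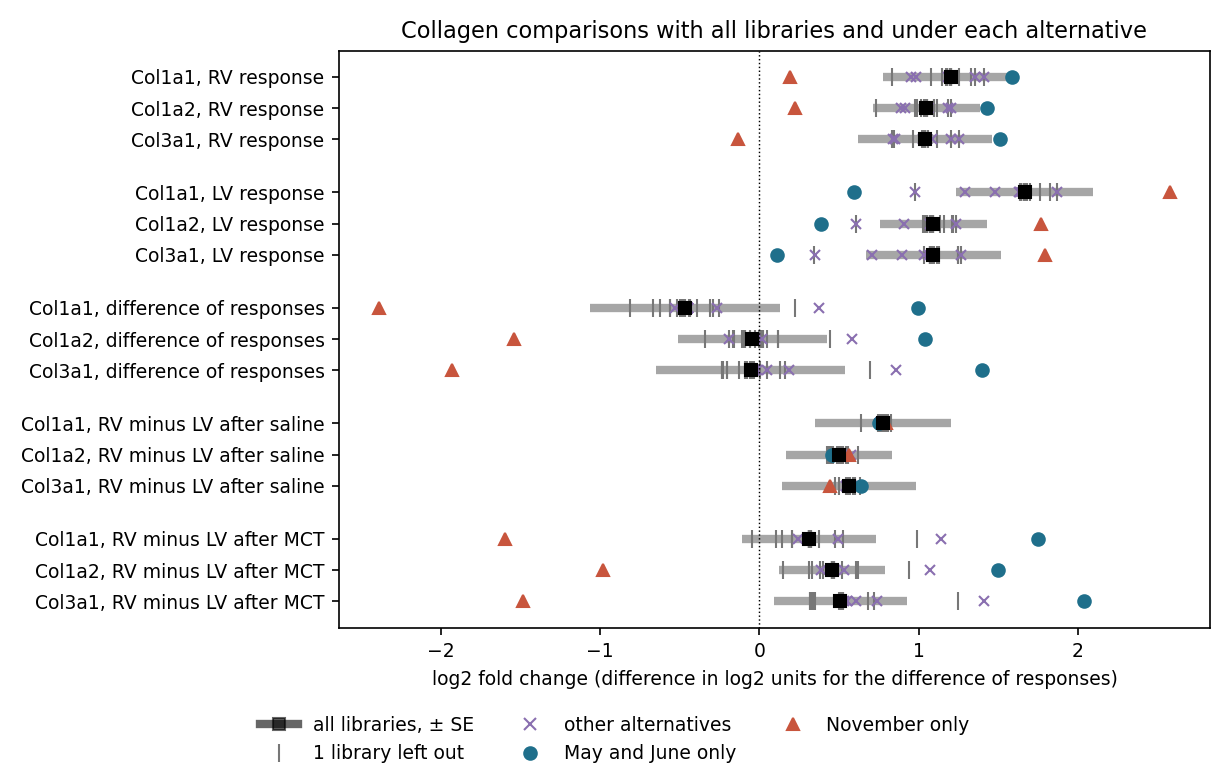
Log2 fold change of each gene in every comparison (squares, with bars of 1 SE), with 1 library left out (ticks), under other alternatives (crosses) and within the months (circles and triangles). In the RV the November values (-0.13 to 0.23) lie below those of May and June, in the LV the May and June values (0.11 to 0.59) lie below those of November, and right minus left after saline hardly moves.

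Subtracting the LV response from the RV response gave a direct comparison, fitted on all 20 libraries. The difference was -0.46 log2 units for Col1a1 (95% confidence interval -1.70 to 0.78), -0.04 for Col1a2 (-1.02 to 0.93) and -0.05 for Col3a1 (-1.29 to 1.18). None was called (edgeR adjusted p = 0.9999 for each), and their unadjusted p was 0.44, 0.93 and 0.93 in the same edgeR fit. The intervals include differences of more than 1 log2 unit in either direction for Col3a1, so they do not show equal responses. The background was 0% of genes called by edgeR, with 305 genes (2.79%) at an unadjusted p under 0.05 and 1 gene called by DESeq2 and 1 by limma voom. Within May and June the difference was 0.997, 1.04 and 1.40 for Col1a1, Col1a2 and Col3a1, and within November it was -2.39, -1.54 and -1.93. None of these passed the threshold (edgeR adjusted p from 0.68 to 0.999). Without both MCT libraries of replicate 5 the sign turned for each, to 0.38, 0.58 and 0.86 (edgeR adjusted p = 0.999 for each). That pair had the most negative RV minus LV of the MCT pairs for each gene. The upward shift therefore follows from the choice and does not count as support.

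After saline, collagen mRNA was at a higher mean level in the RV than in the LV. The log2 difference was 0.78 for Col1a1 (SE 0.43), 0.50 for Col1a2 (SE 0.33) and 0.56 for Col3a1 (SE 0.42), or 1.71-fold, 1.42-fold and 1.48-fold. In the fit over all libraries none passed (edgeR adjusted p = 0.67, 0.77 and 0.81), against 0.0549% of all genes called higher in the RV and 0.0732% called in either direction. All 5 RV saline libraries nevertheless lay above all 5 LV saline libraries for Col1a1 and Col3a1, which was so for 1.59% of tested genes. The fit shares a single estimate of spread per gene over the 4 groups, and for Col1a1 its biological coefficient of variation was 0.46, against a median of 0.23 over all genes. Fitted on the saline libraries alone, the log2 difference of Col1a1 was again 0.78 and passed (edgeR adjusted p = 0.022), in a fit that called 0.372% of all genes higher in the RV. Col1a2 and Col3a1 did not pass there, at 0.50 and 0.56 (edgeR adjusted p = 0.20 and 0.079). The differences were alike within the months, from 0.46 to 0.75 in May and June and from 0.44 to 0.79 in November over the 3 genes.

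After MCT the ventricles gave no uniform difference. RV minus LV was 0.31 log2 units for Col1a1 (95% confidence interval -0.56 to 1.19), 0.46 for Col1a2 (-0.23 to 1.15) and 0.51 for Col3a1 (-0.36 to 1.38). None passed (edgeR adjusted p = 0.99996 for each), and 0% of all genes were called, with 203 (1.86%) at an unadjusted p under 0.05 and 0 called by DESeq2 or by limma voom. The groups overlapped for each collagen, while 0.0732% of genes had every RV MCT library above every LV MCT library. Within May and June the RV was higher by 1.75, 1.497 and 2.04 log2 units for Col1a1, Col1a2 and Col3a1 (edgeR adjusted p = 0.057, 0.065 and 0.0021), and 0.0185% of all genes were called higher. Within November RV minus LV was -1.59, -0.98 and -1.49 (edgeR adjusted p = 0.63, 0.67 and 0.63). Without both MCT libraries of replicate 5 it was 1.14, 1.07 and 1.41, not called (edgeR adjusted p = 0.40, 0.24 and 0.14). These higher values follow from leaving out the pair with the most negative RV minus LV.

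The same pattern showed in each same-numbered library pair, which carry the same date-like code and may share an animal, though the labels do not say so. After MCT, Col1a1 was higher in the RV library by 1.80, 1.84 and 1.45 log2 CPM in replicates 1, 2 and 3, and RV minus LV was -1.14 and -1.83 in replicates 4 and 5. Col1a2 gave 1.47, 1.74 and 1.07, then -0.44 and -1.33. Col3a1 gave 2.16, 2.17 and 1.66, then -0.92 and -1.78. All 3 pairs from May and June thus had more collagen mRNA in the RV, and both pairs from November had more in the library labelled LV, among them the pair of replicate 5 whose labels are in doubt. After saline the RV library was higher in 5 of 5 pairs for each gene, by 0.49 to 1.17 log2 CPM for Col1a1, 0.04 to 0.96 for Col1a2 and 0.40 to 0.88 for Col3a1.

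**Figure D3:**
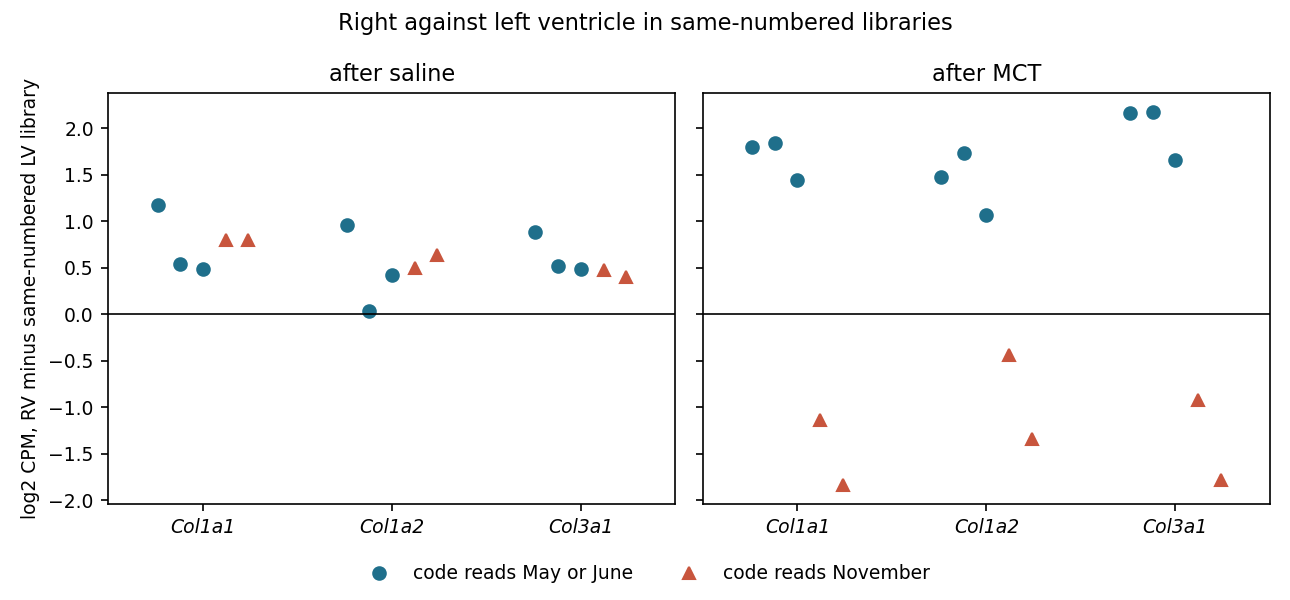
Log2 CPM of the RV library minus that of the LV library with the same number, after saline and after MCT, with circles for May or June codes and triangles for November. After saline all points lie above 0, and after MCT the circles lie above and the triangles below 0.

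The genes moved closely together from library to library. Over all 20 libraries the log2 CPM of Col1a1 and Col1a2 had a Pearson correlation of 0.97, Col1a1 and Col3a1 of 0.95, and Col1a2 and Col3a1 of 0.94. With each group's mean removed the values were 0.95, 0.95 and 0.92, so the likeness was also present within groups. These libraries share treatment, ventricle, depth and perhaps animals, so the correlations are descriptions. The median correlation of Col1a1 with the other 6889 genes of a mean log2 CPM of at least 3 was -0.06, and 2.29% of them exceeded 0.8. For Col1a2 1.38% and for Col3a1 0.755% exceeded it. Among those genes, by level, Col1a2 was the most like Col1a1, and Col1a1 was the most like both Col1a2 and Col3a1. With group means removed Col1a1 kept that place for both. For Col1a1 a gene outside the set, ENSRNOG00000064136, then came just before Col1a2, at 0.953 against 0.952. For Col3a1 another, ENSRNOG00000003736, came before Col1a2, at 0.924 against 0.923.

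The gene outside the set that was most like each of the 3 collagens in level was ENSRNOG00000064136, with correlations of 0.96, 0.96 and 0.92 to Col1a1, Col1a2 and Col3a1. ENSRNOG00000003736 was also among the 5 most alike for each, at 0.95, 0.95 and 0.91. Neither identifier is paired with a symbol here. They were picked by levels over these same libraries, treated ones included, so that their values after MCT are a description. ENSRNOG00000064136 averaged 84.0 ± 54.1 CPM (SD, n = 5) in LV MCT and 38.6 ± 4.83 in LV saline, and the fitted difference was 1.12 log2 units (SE 0.35). In the RV it averaged 99.3 ± 51.9 and 47.6 ± 7.54 CPM, 1.06 log2 units apart (SE 0.34). ENSRNOG00000003736 had fitted differences between MCT and saline of 1.35 log2 units in the LV (SE 0.38) and 1.32 in the RV (SE 0.37).

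Ratios of counts within a library show whether the chains changed in step, free of library scaling. The Col1a1 to Col3a1 ratio averaged 0.739 ± 0.151 (SD, n = 5) in LV MCT and 0.491 ± 0.0832 in LV saline. It ran from 0.581 to 0.988 in LV MCT and from 0.406 to 0.606 in LV saline, so the groups overlapped through the lowest MCT library, replicate 3. In the RV the ratio was 0.626 ± 0.111 after MCT and 0.560 ± 0.0511 after saline, a difference within the spread. The Col1a1 to Col1a2 ratio was 1.22 ± 0.258 in LV MCT, 0.926 ± 0.167 in LV saline, 1.15 ± 0.199 in RV MCT and 1.09 ± 0.120 in RV saline. It was highest, at 1.58, in LV MCT replicate 5, the library with the highest level of Col1a1, and lowest among MCT libraries, at 0.829, in RV MCT replicate 4. The Col1a2 to Col3a1 ratio was 0.621 ± 0.143, 0.539 ± 0.108, 0.561 ± 0.149 and 0.516 ± 0.0321 in LV MCT, LV saline, RV MCT and RV saline. The ratios were not tested, since the genes were chosen together.

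**Figure D4:**
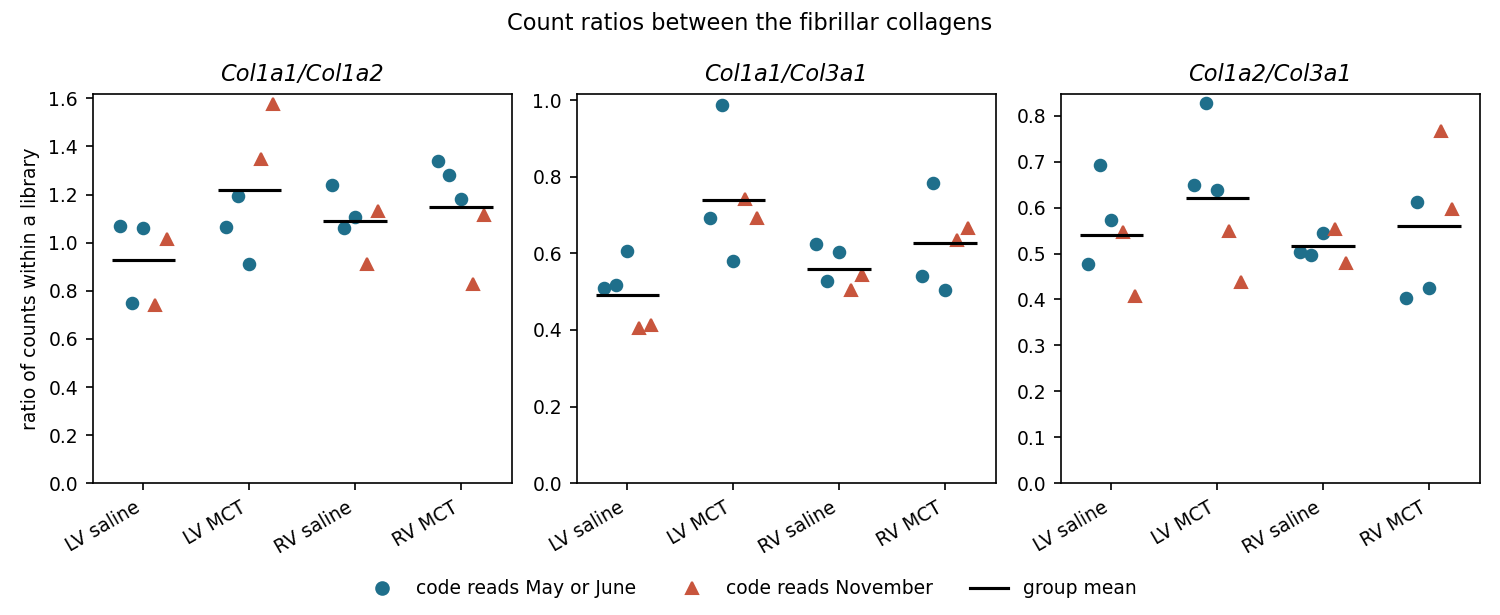
Ratio of counts of each pair of collagen genes within every library (linear axis from 0), with the group mean as a line and symbols by month as in the plot of levels. LV MCT libraries lie high for Col1a1 over Col3a1, from 0.581 to 0.988 against 0.406 to 0.606 in LV saline, and the RV groups overlap for every pair.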

How the data were processed

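For 20 QuantSeq 3' libraries, the authors deposited a table of raw counts by Ensembl gene. STAR 2.7.10a and HTSeq 0.11.3 are named in the submitters' processing notes, with the builds mRatBN7.2 and rn6 and no roles. Strand setting, annotation release and the joining of the sequencing runs are given in no source used here. Counts were analysed with edgeR 4.0.16 in R 4.3.3: TMM, filterByExpr (99.8% of counts kept), 1 robust quasi-likelihood model of the 4 groups, and a Benjamini-Hochberg threshold of 0.05. SEs come from the F statistic, and log2 CPM used a prior count of 2. On simulated counts for 10929 genes 46% of the 2-fold and 90% of the 4-fold changes were found in the RV design, and 54% and 93% in the LV design, with 7 and 6 false calls. The changed genes were drawn at random, and each gene had the same spread in all groups. The collagens spread more after MCT, and their biological coefficients of variation were 0.46, 0.37 and 0.46, against a median of 0.23. These shares therefore do not give the chance of finding a collagen change.

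The genes, lists and tests were chosen with earlier results of these data known. Genes to name were the 3 collagens, the genes most like them, and members of symbol lists of matrix genes and cell markers. The reference table held an Ensembl identifier for 0 genes, so no list was tested, and 2 like genes are named. Whether each library of a group is its own animal is not stated in the labels, and the p-values thus reflect differences among libraries, which may be technical. The chi-square per degree of freedom between libraries of a group ran from 4.94 to 138 over 40 pairs, so none agreed within sampling noise. Alternatives included voom with quality weights (limma 3.58.1), DESeq2 1.42.0, other scaling and filters, the month as a term, single months and leaving libraries out. Every column was matched to a sample by its description code.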

Additional observations from a re-analysis of the deposited data

Results flagged for a closer look

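LV MCT replicate 5 was far above the other LV MCT libraries for Col1a2, at 649.3 CPM, and for Col3a1, at 1482 CPM. RV saline replicate 1 was far above the other RV saline libraries for Col1a1, at 298.3 CPM. In each case the gap to the next library made up most of the range of the group. This was checked in 28 sets of 5 values, and for normally distributed values chance alone gives such a gap in about 1 of 20. The values were not put on a log scale, so the rate here may be higher. The genes vary together, so the sets are not independent.

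RV minus LV after MCT had opposite signs in the months for each of the 3 genes, in every same-numbered pair of a month. In May and June it was 1.75 log2 units for Col1a1, 1.497 for Col1a2 and 2.04 for Col3a1, and in November -1.59, -0.98 and -1.49. The difference between the months was not tested, and the ventricle labels of the November pair of replicate 5 are in doubt.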

How the results depend on the processing

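Values are log2 fold changes, with edgeR adjusted p where the call changed; beyond fewer genes or libraries tested, the cause was not tested. In the LV, without a filter on low counts Col1a1 was at 1.64 (adjusted p = 0.054) and Col1a2 at 1.07 (0.075), both no longer called. Col1a2 also lost its call with the month as a batch term, at 1.08 (0.054), and with the LV groups alone, at 1.09 (0.061). With limma voom Col3a1 was called in the LV, at 0.89 (limma adjusted p = 0.026). With the replicate block the LV values were 1.29 for Col1a1 (0.079) and 0.91 for Col1a2 (0.11), both not called. Under the block the difference of responses changed sign for Col1a2 (0.019) and Col3a1 (0.18), as it did for Col3a1 with the month term (0.048). The block changed no other call. Same-numbered libraries did not all deviate together: correlations of their deviations ran from -0.32 to 0.22 for LV MCT and LV saline, -0.23 to 0.21 for RV MCT and RV saline, -0.35 to 0.24 for RV and LV MCT, and -0.18 to 0.59 for RV and LV saline. The RV saline library correlated best with the LV saline library of its own number in 3 of 5 cases, and calls lost under the block are not read as a weaker effect.

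Within May and June the RV response was called for Col1a1 (1.59), Col1a2 (1.43) and Col3a1 (1.51), RV minus LV after MCT for Col3a1 (2.04), and the LV response lost its call for Col1a1 (0.59) and Col1a2 (0.39). The difference of responses there was 0.997, 1.04 and 1.40 for Col1a1, Col1a2 and Col3a1, of opposite sign to the value over all libraries. Within November the RV response of Col3a1 was -0.13, and RV minus LV after MCT was -1.59, -0.98 and -1.49. With RV MCT replicate 4 and LV MCT replicate 3 both left out, the RV response was called for Col1a1 (1.41), Col1a2 (1.21) and Col3a1 (1.25), and the LV response of Col3a1 (1.27). Those libraries were chosen because they lay among the saline libraries, so higher responses follow from the choice and these calls do not count as support. In an alternative chosen after seeing the data, without both MCT libraries of replicate 5, the RV response was called for Col1a1 (1.35), Col1a2 (1.19) and Col3a1 (1.20), the LV response was not for Col1a1 (0.98) and Col1a2 (0.61), and the difference of responses turned to 0.38, 0.58 and 0.86. Genes called there numbered 250 in the RV, 356 in the LV, 15 for RV against LV after saline and 10 after MCT. Among RV MCT libraries only replicate 4 had lower collagen levels than replicate 5, and LV MCT replicate 5 had the highest of the LV MCT libraries. The shifts in the collagen values without replicate 5 therefore follow from the choice and do not count as support. RV minus LV after saline was called for Col1a1 with the saline groups alone (0.78).

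With 1 library left out, the RV response ran from 0.84 to 1.41 for Col1a1, 0.73 to 1.21 for Col1a2 and 0.84 to 1.25 for Col3a1. The LV response ran from 0.98 to 1.87, 0.60 to 1.24 and 0.35 to 1.27. The difference of responses ran from -0.81 to 0.23, -0.34 to 0.45 and -0.24 to 0.696. RV minus LV ran from 0.64 to 0.83, 0.43 to 0.62 and 0.48 to 0.63 after saline, and from -0.044 to 0.99, 0.15 to 0.94 and 0.32 to 1.25 after MCT.

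The count of genes called in the RV was 30, against 86 when the month was a term, 18 without a filter, 0 with the RV groups alone or the block, 374 with DESeq2, 275 with limma voom, 188 in May and June, 0 in November, 1076 without both libraries, and 0 to 707 with 1 left out. In the LV it was 1040, and 549 with the block, 2911 with limma voom, 0 in May and June, 243 in November, 2016 without both libraries, and 331 to 1699 with 1 left out. RV against LV after saline called 8 genes, and 80 with the saline groups alone, 13 with RLE, 88 with DESeq2, 125 with limma voom, 44 without both libraries, 0 in November, and 0 to 26 with 1 left out. RV against LV after MCT called 0 genes, 3 in May and June and 0 to 2 with 1 left out, and the difference of responses 0, and 1 without both libraries.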
